A study of Mus musculus with 6 samples.

Results

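Sox1, Sox2, Sox3, Pou3f2, Pou3f3, Pax6, Nes, Vim, Msi1 and Prom1 were described in hypothalamic neural stem/progenitor cells (NSC/NPCs). These 10 genes were a given list of transcription factors, filament proteins and surface or RNA-binding proteins that mark neural stem cells, and were found by gene symbol among the 22048 genes of the deposited table. All 10 had reads in every sample and passed the filter on low counts, which left 13952 genes for testing. RNA-Seq covered 3 NC and 3 HE samples, and each sample held first-passage NSC/NPCs from 2 mice. Dams were C57BL/6 mice aged 8 weeks. In the HE (high estradiol) group they were gavaged between E5.5 and E11.5 with 100 μg/kg/d of estradiol valerate. The NC (control) samples carry the label untreated, while the protocol gives their dams corn oil, the solvent, over the same days. In both groups the hypothalami of male fetuses were taken at E14.5, and the cells grew as floating neurospheres in medium with 10 ng/ml EGF and 10 ng/ml bFGF. The labels do not say whether the samples of a group came from different dams, so p-values measure the spread between these samples, part of which may be technical.

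Sox1, Sox2 and Sox3 form the SoxB1 group of HMG box transcription factors, which keep neural progenitors undifferentiated and overlap in function. Pou3f2 and Pou3f3 are POU domain factors that often bind DNA beside Sox2 in neural enhancers, and Pax6 is a paired box and homeobox factor of forebrain progenitors. Nes and Vim encode nestin and vimentin, intermediate filament proteins that assemble together in progenitors and radial glia. Msi1 encodes the RNA-binding protein Musashi-1, and Prom1 encodes prominin-1 (CD133), a membrane glycoprotein of apical protrusions and cilia. Vim is also made by mesenchymal and endothelial cells, and Prom1 by ependymal cells.

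The genes are all protein-coding and spread over 7 chromosomes. Positions are from the RefSeq annotation of GRCm38.p6, the build that mm10 names. Sox2 lies on chromosome 3 from 34649995 to 34652461 and Nes on the same chromosome from 87971093 to 87980451. Sox1 is on chromosome 8 (12395519 to 12399555) and Sox3 on the X chromosome (60891366 to 60893430). Pou3f2 lies on chromosome 4 (22482095 to 22488366) and Pou3f3 on chromosome 1 (42695768 to 42700210). Chromosome 2 carries Vim (13574311 to 13582826) and Pax6 (105668896 to 105698410), and chromosome 5 carries Msi1 (115359059 to 115455698) and Prom1 (43993621 to 44102047). The annotated lncRNAs Sox2ot, Sox1ot and Gm46091 overlap Sox2, Sox1 and Pou3f3, Pax6 is overlapped by Pax6os1 and by the end of Elp4, and 2 lncRNAs overlap Msi1. The library was strand-specific, but the use of strand in counting is not given in the sources used here, so reads of these partners cannot be told apart from those of the 5 genes.

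Below are the promoters of 4 of the 5 genes that were lower in every HE sample than in every NC sample, and that of Nes, which was not. Each is the 250 bases before a RefSeq start (GRCm38.p6), written 5′ to 3′ on the strand of the gene. The Prom1 window lies inside the gene span given above, which ends at 44102047, so its start is not the outermost annotated one. They lie at chr8:12395269-12395518 (plus strand, Sox1), chr3:34649745-34649994 (plus strand, Sox2), chr1:42695518-42695767 (plus strand, Pou3f3), chr5:44101737-44101986 (minus strand, the first of 2 Prom1 starts) and chr3:87970843-87971092 (plus strand, Nes). Capitals mark matches on either strand to 7 short motifs. The octamer, ATGCAAAT, is bound by POU factors. A first core bound by SOX proteins is ACAAAG, and a second such core, close to it in sequence, reads ACAATG. The box named CCAAT is common in promoters, as is the GC box, which is spelled GGGCGG here. The core promoter element called the TATA box was searched as TATAAA, and the half-site of the estrogen response element was searched as AGGTCA.
Sox1: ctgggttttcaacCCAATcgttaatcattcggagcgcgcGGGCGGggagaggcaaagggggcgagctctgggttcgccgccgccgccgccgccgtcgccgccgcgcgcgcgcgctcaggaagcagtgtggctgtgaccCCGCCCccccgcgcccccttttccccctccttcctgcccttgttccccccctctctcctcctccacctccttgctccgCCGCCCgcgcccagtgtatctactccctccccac
Sox2: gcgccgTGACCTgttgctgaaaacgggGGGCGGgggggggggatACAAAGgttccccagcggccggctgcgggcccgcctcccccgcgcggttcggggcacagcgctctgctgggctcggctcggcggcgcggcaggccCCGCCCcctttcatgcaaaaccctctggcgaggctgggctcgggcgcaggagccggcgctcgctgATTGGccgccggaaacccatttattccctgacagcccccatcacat
Pou3f3: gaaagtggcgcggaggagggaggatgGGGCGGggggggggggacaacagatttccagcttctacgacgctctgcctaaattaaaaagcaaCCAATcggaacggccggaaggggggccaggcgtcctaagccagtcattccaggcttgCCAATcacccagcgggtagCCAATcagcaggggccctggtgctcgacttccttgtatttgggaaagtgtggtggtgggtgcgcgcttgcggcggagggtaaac
Prom1: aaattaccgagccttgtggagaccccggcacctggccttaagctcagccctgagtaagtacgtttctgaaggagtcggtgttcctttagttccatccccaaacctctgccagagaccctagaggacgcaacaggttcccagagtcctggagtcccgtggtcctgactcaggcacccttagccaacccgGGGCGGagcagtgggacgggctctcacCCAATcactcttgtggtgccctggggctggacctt
Nes: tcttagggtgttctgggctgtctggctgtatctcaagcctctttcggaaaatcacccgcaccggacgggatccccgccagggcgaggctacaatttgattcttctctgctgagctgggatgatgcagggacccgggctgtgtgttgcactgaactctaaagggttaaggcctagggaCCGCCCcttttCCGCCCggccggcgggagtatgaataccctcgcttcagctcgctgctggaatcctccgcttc

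RefSeq promoters were at hand for 8 of the 10 genes. The Sox2 promoter held 1 match to the first SOX core, 206 to 201 bases before the start, and 1 match to the estrogen half-site on the opposite strand, 244 to 239 bases before it. Of 32851 promoter windows of the same length, 16.5% held the first SOX core and 14.02% held the half-site. The CCAAT box, present in 33.8% of all windows, was found in the Sox1, Sox2, Pou3f3 and Prom1 windows and not in that of Nes, and Pou3f3 had 3 copies. Windows of Pou3f2, Pax6 and Vim, which are not shown and whose groups overlapped, also held the CCAAT box. It thus did not separate the genes lower in every HE sample from the others. The GC box, present in 32.7% of all windows, was in all 5 windows shown. None of these 5 windows held the octamer (1.60% of all windows), the second SOX core (10.7%) or the TATA box (12.4%), and no matches shared a base. A match describes the letters of the window and is not evidence of binding.

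Gene counts summed to between 16078675 (HE3) and 19137059 (NC2) reads in a sample, and the 10 genes rested on 206 reads (Sox3 in HE1) to 161979 reads (Vim in NC3). At 206 reads the counting error alone is 6.97%. One library stood apart. Over all tested genes the median absolute distance from the NC mean was 0.46 on the log2 scale in HE3, against 0.21 in HE1 and 0.20 in HE2, and HE3 held the lowest of the 6 values in 44.4% of genes. It held the lowest value in 6 of the 10 genes described here (Sox1, Sox2, Pou3f2, Pou3f3, Msi1 and Prom1) and the highest in Nes. The comparisons of the 10 genes, and the medians of the other gene lists, are therefore given with and without HE3.

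By the mean over all samples, the order of levels ran from Vim to Pax6. RPKM takes account of gene length and sequencing depth, so levels can be set side by side between genes. Vim was the most abundant at 1767 ± 36.8 RPKM in NC (SD, n = 3 samples here and below), above 99.9% of tested genes by its mean over all samples. Nes and Sox2 came next, above 98.0% of tested genes each. Nes was above Sox2 in only 2 of the 6 samples, so these neighbours did not differ beyond their spread. Pou3f3, Pou3f2 and Sox1 followed in that order in all 6 samples. Sox3, Msi1, Prom1 and Pax6 all lay under 9 RPKM, and the ranges of neighbours overlapped. Sox3 was above Msi1 in 3 of 6 samples and Prom1 above Pax6 in 4 of 6. For Pou3f3 the deposited length of 7409 bases exceeds the RefSeq span by 2966 bases and for Sox1 that of 4832 bases by 795, so their RPKM rests on a gene model longer than RefSeq's.

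**Figure D1:**
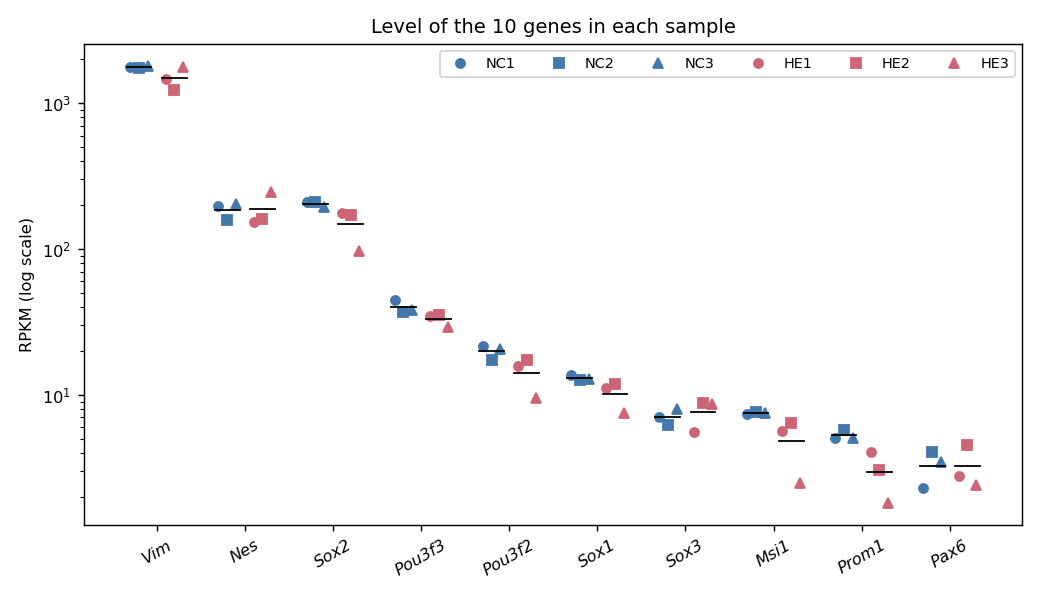
RPKM on a log axis for the 10 genes in each of the 6 samples, with NC in blue and HE in red, a marker shape for each replicate number and a black line at each group mean. Vim lies between 1234 and 1803 RPKM and the other genes at 247 RPKM or less.

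Across the 10 genes, 9 had a negative and 1 a positive log2 fold change (HE minus NC), while 56.2% of all tested genes were lower in HE. Among the 9, Pax6 and Nes lay near 0, at -0.02 each, and both turned positive with median-of-ratios scaling. The median of the 10 was -0.33 against -0.06 over all 13952 tested genes. Without HE3 it was -0.23 against -0.00018, again with 9 negative and 1 positive. In limma 0 of the 10 passed an adjusted p-value of 0.05 with a log2 fold change of at least 1 either way, as did 0% of all tested genes. The same count was 0 with voom on the read counts, as over all tested genes. It was also 0 in both fits that weight samples, where 1.92% (sample weights on RPKM) and 0.810% (voom with sample quality weights) of all tested genes were called. At an unadjusted p-value under 0.05 only Prom1 was lower, against 11.8% of all tested genes, and 0 genes were higher, against 8.68%. In 5 of the 10 (Sox1, Sox2, Pou3f3, Msi1 and Prom1) all 3 HE values were under all 3 NC values, which held for 17.9% of tested genes. The reverse held for 0 of the 10 and for 14.8% of tested genes. With 3 samples against 3 an exact two-sided permutation test cannot go below p = 0.1, the value for each of these 5 genes. Without HE3, 6 of 10 were lower in both remaining HE samples, with Vim added, against 20.1% of tested genes, and Sox2, Msi1 and Prom1 had an unadjusted p-value under 0.05 for a lower level, against 10.5%. Because these are bulk samples, fewer cells of a type and less mRNA per cell cannot be told apart.

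**Figure D2:**
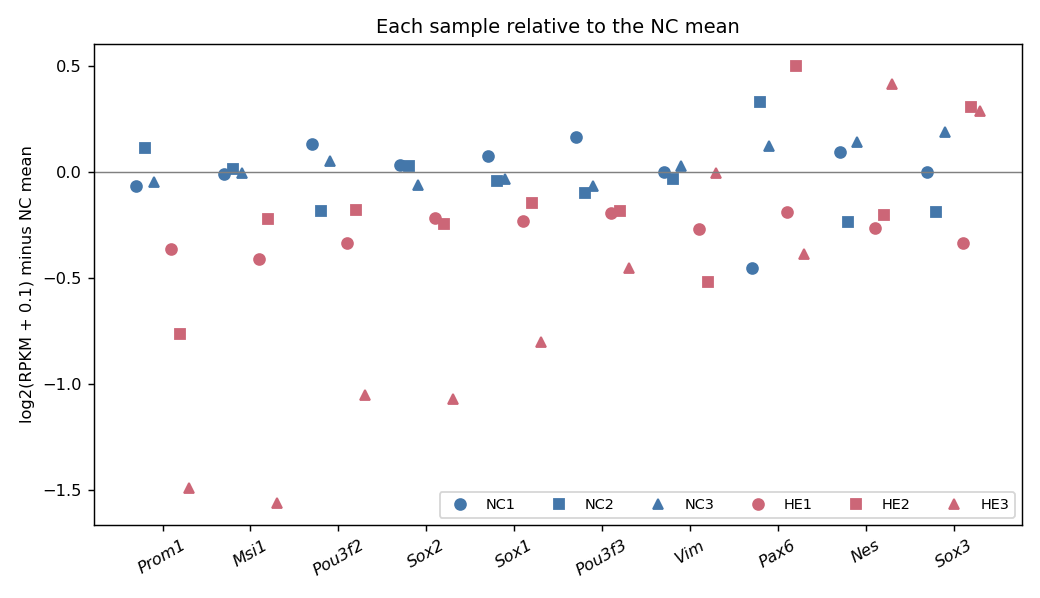
Difference of each sample from the NC mean on the log2(RPKM + 0.1) scale, by gene and ordered by log2 fold change, with NC in blue, HE in red and a marker shape for each replicate number. HE3 lies at -1.49 for Prom1, -1.56 for Msi1 and -1.07 for Sox2, and at 0.41 for Nes.

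Sox2, the factor used with nestin to identify NSC/NPCs, was at 209, 209 and 195 RPKM in NC1, NC2 and NC3. HE1, HE2 and HE3 were at 176, 172 and 97.3 RPKM, so that HE1 and HE2 lay close below the lowest NC sample and HE3 far below it. HE differed from NC by -0.51 in log2 fold change (standard error 0.23, 95% interval -1.06 to 0.04, adjusted p = 0.260 in limma). Without HE3 it was -0.23, with an interval of -0.46 to -0.0041 and an adjusted p-value of 0.246. The group means were 204 ± 7.66 and 148 ± 44.3 RPKM, and the SD of HE was 29.8% of its mean against 3.75% in NC.

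Sox1 was also lower in all 3 HE samples, with HE3 lowest, at a level far below that of Sox2. Its NC values were 13.8, 12.7 and 12.8 RPKM and its HE values 11.2, 11.8 and 7.48 RPKM. The groups did not overlap, and HE2 came within 1 RPKM of the lowest NC sample. The log2 fold change of Sox1 was -0.39 (standard error 0.18, 95% interval -0.83 to 0.04, adjusted p = 0.266 in limma) and was -0.19 without HE3. Sox3, the third SoxB1 gene, did not share this order. Its NC values were 7.07, 6.17 and 8.05 RPKM and its HE values 5.57, 8.76 and 8.64 RPKM, with HE1 lowest and HE2 highest of all 6. Its log2 fold change was 0.09 (95% interval -0.40 to 0.57, adjusted p = 0.816), and -0.01 without HE3.

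Sox2 made up most of the summed SoxB1 level in every sample. Its share of the summed RPKM of Sox1, Sox2 and Sox3 was 91.0 ± 0.674% in NC and 88.8 ± 2.79% in HE, and lowest in HE3 at 85.8%. Without HE3 the HE mean was 90.3%. The share of Sox3 was 3.08, 2.71 and 3.72% in NC and 2.90, 4.54 and 7.62% in HE. The groups overlapped through HE1. Sox1 kept to between 5.59 and 6.59% over the 6 samples. The summed level itself was 216 to 230 RPKM in NC and 192, 193 and 113 RPKM in HE1, HE2 and HE3.

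Among the POU factors, Pou3f3 was at 44.6, 37.2 and 38.0 RPKM in NC and at 34.8, 35.0 and 29.0 RPKM in HE. All HE values lay below the NC values, although HE2 was within 3 RPKM of NC2. Its log2 fold change of -0.28 had a standard error of 0.13 and a 95% interval of -0.57 to 0.02 (adjusted p = 0.262 in limma), and was -0.19 without HE3. Pou3f2 was at 21.7, 17.4 and 20.5 RPKM in NC and at 15.7, 17.5 and 9.50 RPKM in HE. Here HE2 just exceeded NC2, so the groups overlapped. The log2 fold change of Pou3f2 was -0.52 (standard error 0.23, interval -1.07 to 0.03, adjusted p = 0.255) and -0.25 without HE3.

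The remaining genes of the same POU class had positive log2 fold changes, and neither was called. Pou3f1 was at 1.02, 0.937 and 1.06 RPKM in NC and at 1.03, 3.02 and 6.53 RPKM in HE, with HE1 at the NC level. Its log2 fold change was 1.37 (standard error 0.57, adjusted p = 0.241 in limma), and 0.77 without HE3. Pou3f4 was at 9.59 to 10.9 RPKM in NC and at 8.97, 12.7 and 13.998 RPKM in HE, a log2 fold change of 0.20 (0.07 without HE3). Within the summed RPKM of Pou3f1 to Pou3f4, Pou3f2 held 28.0 ± 1.59% in NC and 25.9, 25.6 and 16.1% in HE1, HE2 and HE3. Pou3f1 held 1.31 to 1.53% in NC and 1.703, 4.43 and 11.1% in HE. The composition of the class thus differed most from NC in HE3, less in HE2 and least in HE1.

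**Figure D3:**
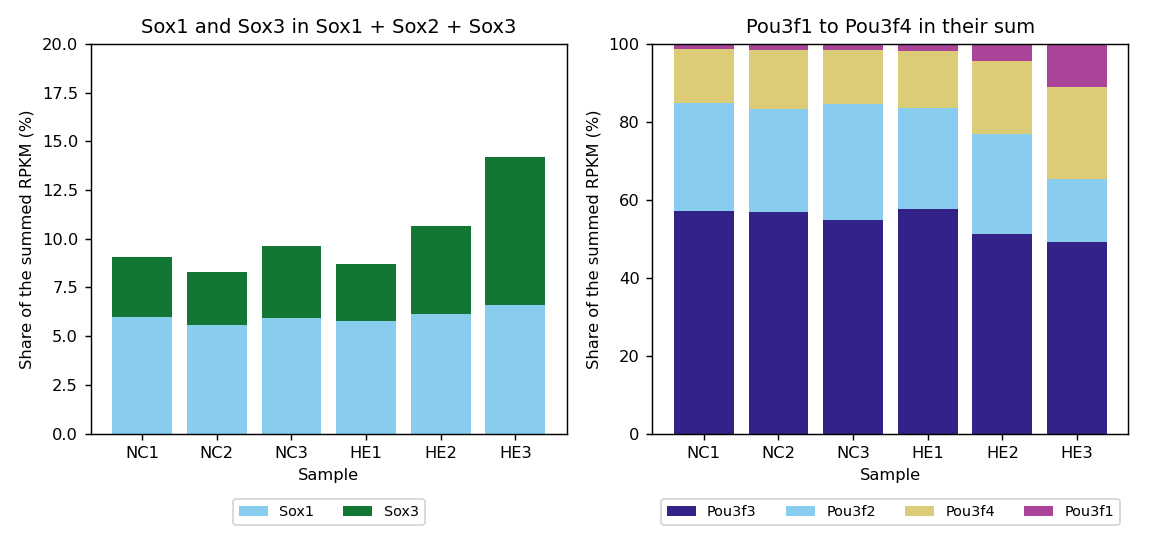
Left, shares of Sox1 and Sox3 in the summed RPKM of Sox1, Sox2 and Sox3 in each sample (axis from 0 to 20%, Sox2 being the remainder). Right, shares of Pou3f1, Pou3f2, Pou3f3 and Pou3f4 in their summed RPKM. The share of Sox3 is 7.62% and that of Pou3f1 11.1% in HE3, against at most 3.72% and 1.53% in NC.

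Pax6 was the least abundant of the 10 genes by its mean over all samples, although Prom1 had the lower mean in HE. Pax6 varied as much within the groups as between them. Its level was 2.30, 4.03 and 3.48 RPKM in NC and 2.78, 4.55 and 2.41 RPKM in HE. NC1 was lowest and HE2 highest, and the groups overlapped throughout. Its log2 fold change of -0.02 had a wide 95% interval of -0.72 to 0.67 (adjusted p = 0.963 in limma), and its sign turned to 0.036 with median-of-ratios scaling and to 0.16 without HE3. That interval includes differences in either direction, so these samples do not settle the sign of a difference in Pax6.

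Nes was at 198, 158 and 204 RPKM in NC and at 154, 161 and 247 RPKM in HE. HE1 and HE2 lay beside the lowest NC sample and HE3 above every NC sample, so that the means of 187 ± 25.4 and 188 ± 51.8 RPKM were close while HE was widely spread. For Nes it was -0.02 in log2 fold change (95% interval -0.51 to 0.48, adjusted p = 0.961 in limma), 0.044 with median-of-ratios scaling and -0.23 without HE3. Vim was at 1770, 1729 and 1803 RPKM in NC, a spread of 2.08% of the mean, and at 1468, 1234 and 1764 RPKM in HE. HE1 and HE2 lay below all NC samples and HE3 among them. The log2 fold change of Vim was -0.26 (interval -0.75 to 0.22, adjusted p = 0.453), and -0.39 without HE3. The ratio of Vim to Nes was 8.94, 10.97 and 8.82 in NC and 9.51, 7.67 and 7.13 in HE, with overlapping groups.

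Msi1 had the smallest spread in NC. Its NC values were 7.45, 7.59 and 7.47 RPKM, an SD of 0.971% of the mean, and its HE values were 5.62, 6.42 and 2.48 RPKM. HE1 and HE2 were moderately lower than NC and HE3 was lowest, with 231 reads against 811 to 842 in NC. The log2 fold change of Msi1 was -0.73 (standard error 0.33, 95% interval -1.51 to 0.05, adjusted p = 0.260 in limma), and -0.32 without HE3. Prom1 had the lowest log2 fold change of the 10, at -0.87 (standard error 0.28, interval -1.53 to -0.22, adjusted p = 0.196). It was at 5.03, 5.70 and 5.10 RPKM in NC and at 4.07, 3.06 and 1.81 RPKM in HE, so the 3 HE samples were spread out below NC. Without HE3 the log2 fold change of Prom1 was -0.56 with an interval of -0.94 to -0.19 and an adjusted p-value of 0.164, and 8.21% of all tested genes had a smaller p-value than Prom1 in the fit on all samples.

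**Figure D4:**
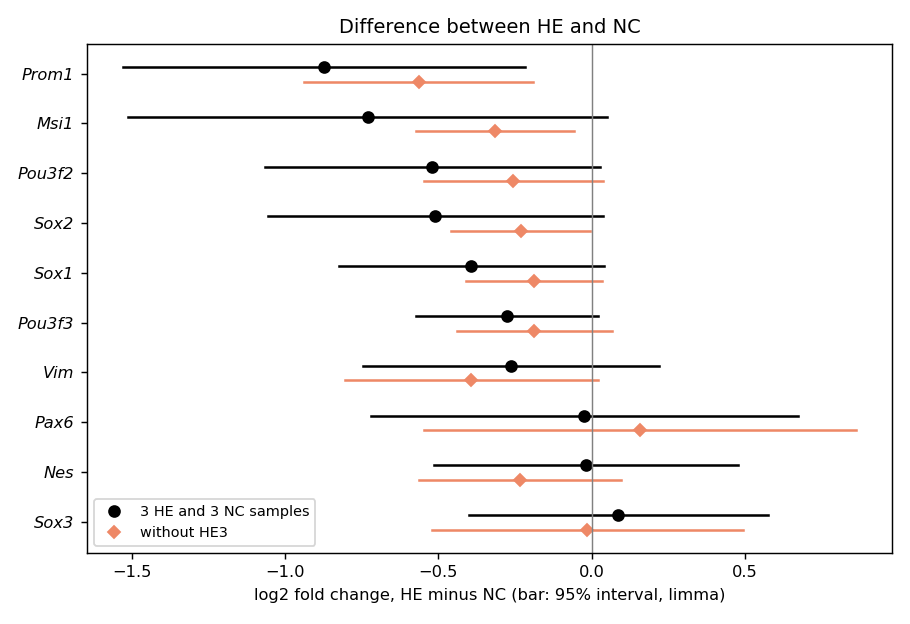
Log2 fold change (HE minus NC) of the 10 genes on the log2(RPKM + 0.1) scale with its 95% interval from limma, for all 6 samples (black circles) and without HE3 (orange diamonds). The intervals of Prom1 exclude 0 in both fits, whereas those of Sox3, Pax6 and Nes are centred near 0 in the fit on all samples.

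The profiles of the genes over the samples fell closest together for Sox1, Sox2 and Pou3f2. Likeness was measured as the root mean square difference of log2 values over the 6 samples, after each gene was centred on its own mean. Of the 45 pairs, Sox1 and Sox2 had the smallest difference at 0.11, followed by 0.12 for both Sox1 and Pou3f2 and Sox2 and Pou3f2. Nes and Vim were at 0.20. The largest differences were between Nes and Msi1 at 0.74 and between Sox3 and Prom1 at 0.72. Values of all genes in a sample come from 1 library and share its depth and make-up, so these differences are descriptions.

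By the same measure over all tested genes, those most like Sox2 were Zfp28 (0.018), Soat1 (0.029) and Prpf40b (0.037). Zfp28 was at 4.18 to 4.41 RPKM in NC and at 3.68, 3.68 and 2.02 RPKM in HE. Closest to Pou3f2 were Jade1 (0.042), Midn (0.045) and Arhgap39 (0.047), and closest to Nes were Tmem44 (0.053), Tmc6 (0.054) and Crip2 (0.062). Crip2 was at 49.0 to 59.3 RPKM in NC and at 47.9, 52.9 and 79.5 RPKM in HE, so that HE3 was highest, as for Nes.

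Other Sox genes, of the SoxB2, SoxC, SoxD and SoxE groups, were described from a list of 11, of which 10 were tested and Sox14 was near 0. None was called, 9 of 10 had a negative log2 fold change, and the median was -0.16 (-0.05 without HE3, with 7 of 10 negative). Sox21, a SoxB2 factor that acts against SoxB1 factors, was at 12.9, 10.8 and 9.81 RPKM in NC and at 5.90, 6.94 and 4.24 RPKM in HE. All 3 HE values lay below NC, and the difference was -0.98 on the log2 scale (adjusted p = 0.195, standard error 0.20), or -0.78 without HE3. Sox10, which marks the oligodendrocyte lineage, was at 13.04 to 15.4 RPKM in NC and at 16.5, 13.1 and 1.65 RPKM in HE, so its log2 fold change of -0.99 rested on HE3, without which it was 0.03. Of 11 other POU genes 6 were tested, 3 with a positive and 3 with a negative value (median -0.02, or 0.09 without HE3), and none was called. Besides Pou3f1, Pou6f1 stood out at 10.3 to 11.7 RPKM in NC and 8.37, 7.72 and 3.87 RPKM in HE, or -0.77 in log2 fold change (adjusted p = 0.215, standard error 0.28) and -0.43 without HE3.

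Among 15 tested of 16 other intermediate filament and linker genes, 12 had a negative and 3 a positive log2 fold change, with a median of -0.48 (-0.18 without HE3), and none was called. In 5 of them (against 17.9% of all tested genes) all 3 HE values were under all 3 NC values. These were Plec, Dst, Macf1, Lmna and Synm, named after their values were seen. Plec, which encodes plectin and links intermediate filaments to other structures, was at 33.4, 34.4 and 35.7 RPKM in NC and at 18.5, 18.4 and 12.1 RPKM in HE. The groups lay far apart, with HE3 lowest, and their log2 difference was -1.10 (adjusted p = 0.195, standard error 0.18), or -0.90 without HE3. Krt8 and Krt18, which form a keratin pair, had the largest differences, of -1.35 and -1.25 (-0.41 and -0.32 without HE3), with overlapping groups, and Krt8 ranged from 0.550 to 2.83 RPKM within NC. Gfap, the astrocyte filament protein, was at 624 to 754 RPKM in NC and at 650, 387 and 195 RPKM in HE.

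Of 16 tested among 17 further progenitor genes, 6 were higher and 10 lower by log2 fold change, with a median of -0.14 (-0.03 without HE3) and none called. Msi2, the paralog of Msi1, was at 35.0 to 38.8 RPKM in NC and at 35.2, 32.3 and 22.5 RPKM in HE, a log2 fold change of -0.34. Fabp7, a fatty acid-binding protein of radial glia, was at 736 to 1323 RPKM in NC and at 1373, 1211 and 2383 RPKM in HE (log2 fold change 0.62). Lhx2 was at 10.2, 1.77 and 9.49 RPKM in NC and at 5.17, 2.23 and 1.36 RPKM in HE, with a log2 fold change of -1.12 and overlapping groups. In this list Fabp7 was highest and Lhx2 lowest in HE3. Notch1, named after its values were seen, was the only gene of the 16 tested that lay below NC in every HE sample. The same held for 17.9% of all tested genes.

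Defining markers were used to check the labelled cells and to give the levels of other cell types. Sox2, Nes and Vim were abundant in all samples, as described. The other genes of the 10 were at lower levels, with Sox3, Msi1, Prom1 and Pax6 at the lowest means. Hypothalamus markers were low. Rax was at 0.0309 to 0.251 RPKM and not tested, 10 of 14 listed genes were tested, and their summed level was 12.1 to 15.7 RPKM in NC and 13.7 to 16.1 RPKM in HE. In this list, of median 0.47 (0.52 without HE3), Foxb1 had a log2 fold change of 1.98 and Nkx2-4 of 1.42. Astrocyte and oligodendrocyte lineage markers were present at high levels. The sum of 8 astrocyte markers was 885 to 1349 RPKM in NC and 843 to 1020 RPKM in HE, with 4 of 8 higher and 4 lower and a median of -0.01 (0.27 without HE3, with 5 higher and 3 lower). Aldh1l1, the most abundant, was at 553 to 698 RPKM in NC and below that in all HE samples (log2 fold change -0.27), Aqp4 was at 15.6 to 47.7 RPKM with a log2 fold change of -0.55, and S100b had one of 0.92. The 8 oligodendrocyte lineage markers summed to 297 to 330 RPKM in NC and 331 to 514 RPKM in HE, with 2 of 8 higher and 6 lower by log2 fold change and a median of -0.26. Without HE3, 6 were higher and 2 lower, with a median of 0.16. Olig1 was at 134 to 140 RPKM in NC and 143, 188 and 312 RPKM in HE, while Mbp was at 1.79 and Gpr17 at 1.53 RPKM in HE3. The neuron markers summed to 120 to 154 RPKM in NC and 138, 148 and 272 RPKM in HE2, HE1 and HE3. Gap43 made up 202 RPKM of the sum in HE3, against 66.3 to 75.1 RPKM in NC, and 4 of 10 were higher and 6 lower, with a median of -0.10 (-0.16 without HE3). Tubb3 was at 19.1 to 46.6 RPKM, Elavl3 had a log2 fold change of -0.72 and Elavl4 of 0.74. None of the 57 genes tested in the 8 lists of cell type and region markers was called.

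The tested mesenchymal, endothelial and microglia markers were higher in HE by log2 fold change, and cilia markers were mostly lower. Astrocyte markers, described above, were split between higher and lower. The 8 mesenchymal and pericyte markers summed to 23.5 to 76.7 RPKM in NC and 69.9 to 164 RPKM in HE, and all 7 tested were higher by log2 fold change, among them Mgp (2.35), Dcn (1.704) and Col1a1 (0.92), with a median of 0.92 (1.35 without HE3). Endothelial markers were near 0, and only 3 of 8 were tested. Their sums were 1.28 to 1.78 RPKM in NC and 3.36 to 4.65 RPKM in HE, with Pecam1 at most at 0.170 RPKM. Log2 fold changes were 1.69 for Cdh5 and 1.11 for Esam (1.73 and 1.46 without HE3), and the Esam values were the medians of the 3 tested. Of the untested ones, Tek had a lower mean in HE, and Pecam1, Cldn5, Emcn and Tie1 had higher means. Microglia markers summed to 0.403 to 0.882 RPKM in NC and 1.76 to 9.38 RPKM in HE, and only 3 of 8 were tested. C1qa, not tested, had 0 reads in NC1 and NC2 and was at 0.967, 0.252 and 3.17 RPKM in HE. C1qb had 0 reads in NC2 and NC3, was at 0.578 to 2.00 RPKM in HE and passed the filter only through HE. The untested C1qc, Tyrobp and Trem2 were also above NC in every HE sample. Aif1, not tested, had a lower mean in HE, and Csf1r and Cx3cr1 overlapped between the groups. The log2 fold change for Cx3cr1 was 0.32, or 0.27 if HE3 was left out, in both cases the median of the 3 tested. The 8 ependymal and motile cilia markers summed to 59.6 to 81.4 RPKM in NC and 66.0, 45.3 and 34.0 RPKM in HE1, HE2 and HE3, and 7 of 8 were lower, with a median of -0.46. Foxj1 was at 40.6 to 66.4 RPKM in NC and at 46.0, 35.1 and 22.0 RPKM in HE, and the log2 fold change of Dnah5 was -0.90. If HE3 was left out, 5 of 8 cilia markers were lower and 3 higher, with a median of -0.33. The part of any of these cells in the values of the 10 genes was not tested.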

How the data were processed

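RNA-Seq tables of 3 NC and 3 HE samples were used. For each gene and sample the deposited file holds raw read counts, as counted by the authors, and RPKM, which the authors derived from them with gene length and library size. Per the labels reads were aligned to mm10 with Tophat2, and CASAVA 1.7 is listed. The counting tool, its annotation and its strand setting are not given in the sources used here. The test of the authors was DESeq2 on read counts. Large counts in the file carry commas and failed the check of units used here, so RPKM was tested, and read counts served only for the filter, median-of-ratios scaling and voom.

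Values of log2(RPKM + 0.1) were compared between HE and NC by limma (3.58.1, R 4.3.3, trend on, no covariate), and p-values were adjusted by Benjamini-Hochberg over 13952 genes. The filter asked for 10 reads, scaled to the median library, in 3 samples and 15 reads in all. Such fold changes understate those of low genes. Of the identifiers, 21781 had a symbol. Genes outside the 10 were named by rule (the 2 largest differences in each of 12 lists, the first marker of each other cell type, and the 3 genes most like Sox2, Pou3f2 and Nes), with exceptions. Pou3f4, Sox14, Gfap, Plec, Dst, Macf1, Lmna, Synm, Msi2, Notch1, Gap43 and Aldh1l1 were chosen after their values were seen. Tek, Cldn5, Emcn, Tie1, C1qc, Tyrobp, Trem2, Aif1 and Csf1r were also named outside the rule, with their values known. The 10 genes, lists and rules were chosen with earlier results of these data known. Alternatives were a pseudocount of 1, median-of-ratios scaling, 2 other filters, a replicate block, each sample left out, voom and sample weights. Counting errors cover counting only.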

Additional observations from a re-analysis of the deposited data

How the results depend on the processing

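Over 14 alternatives none of the 10 genes was called, and of 140 log2 fold changes 125 kept their sign and 15 turned it, all of the latter for Sox3, Pax6 and Nes. With median-of-ratios scaling Pax6 was at 0.036 and Nes at 0.044. Sample weights on RPKM, which give HE3 a weight of 0.158, put Pax6 at 0.42, and voom with sample quality weights put it at 0.36. With each sample left out in turn the log2 fold change was -0.29 to 0.16 for Pax6, -0.23 to 0.11 for Nes and -0.024 to 0.30 for Sox3, and the number of genes lower at an unadjusted p-value under 0.05 was 0 without NC2 (against 6.96% of all tested genes), 5 without HE2 (12.9%), 2 without HE1 (13.7%) and 3 without HE3 (10.5%). That number was 5 with sample weights on RPKM (against 16.01% of all tested genes) and 4 with voom and sample quality weights (14.2%). With these 2 fits, 5 and 4 genes of the other lists were called and 268 and 113 over all tested genes, against 0, and leaving out NC3 gave 103. With sample weights Prom1 had an adjusted p-value of 0.047 at a log2 fold change of -0.67. The cause of these changes was not tested. Replicate numbers are shared by NC and HE but are not stated to pair samples. Same-numbered samples had correlations of their deviations from the group means of 0.16, 0.087 and 0.060, and each sample correlated best with its own number. With the replicate number as a block, 3 of the 10 genes were lower at an unadjusted p-value under 0.05, against 14.1% of all tested genes, and none was called. The 3 samples per group and the spread of HE limit what can be seen, since the 95% intervals of 9 of the 10 genes include 0.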
